A study of Homo sapiens with 12 samples.

Results

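The cytosolic ribosomal protein genes were taken as every gene whose symbol has the form RPL or RPS followed by a number, together with RPLP0, RPLP1, RPLP2 and RPSA, and without the RPS6K kinases. The rule used names and no measured value, and it took 84 of the 18739 genes in the tables, 52 of the large and 32 of the small ribosomal subunit. RNA was sequenced from SK-N-SH, an established human neuroblastoma cell line, in 12 libraries that form 4 groups of 3. One group received chaetocin at 50 nM, a fungal compound used as an inhibitor of the histone H3 lysine 9 methyltransferase SUV39H1, one was transfected with an siRNA against SUV39H1 (siSUV39H1), one with a control siRNA (siNC), and one received the solvent DMSO. The design text calls the samples biological triplicates and gives the silencing groups an sh prefix where the sample labels have si, and it is the only label that speaks of separate cultures. The siSUV39H1 group is labelled as an SUV39H1 knockdown and the other groups as wild type, with nothing said of how long any group was treated. The siRNA groups carry a transfection that the chaetocin and DMSO groups do not, and the sequence of neither siRNA was used here. Total counts ranged between 18004632 and 19976995 per library. SUV39H1 itself stood at 5.68, 5.62 and 5.26 TPM (transcript abundance per length, scaled to the same sum in each library) with chaetocin, against 13.68, 12.85 and 15.4 with DMSO, and at 3.94, 4.66 and 4.09 TPM with siSUV39H1, against 12.64, 10.77 and 12.12 with siNC.

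Each ribosome holds one copy of most ribosomal proteins, so cells make them in balanced amounts, and their mRNAs are among the most abundant of a dividing cell. In vertebrates nearly all of these mRNAs begin with a cytidine followed by a run of pyrimidines, the terminal oligopyrimidine (TOP) motif, through which mTORC1 and the RNA-binding protein LARP1 control their translation and stability. The transcription factor MYC also acts on these genes, and an amplified MYCN gene in many neuroblastomas is known for raising ribosome production. A few human genes encode close relatives of a ribosomal protein, such as RPL22L1 beside RPL22, that can take the place of the main protein.

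The bases around the annotated start are shown for the relatives on which several results turn, for 3 of their main genes and for RPL41, as windows that run from 15 bases before the start to the 15 bases from the start on. Capitals mark the longest run of pyrimidines that reaches to within 5 bases of the start base, which is not always a run at the start itself. The sequences are from RefSeq on build GRCh38.p14, which had a promoter entry for 67 of the 84 members, and are read on the strand of the gene.
RPL22 (chr1:6199581-6199610, minus strand): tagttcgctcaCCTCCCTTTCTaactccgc
RPL22L1 (chr3:170870181-170870210, minus strand): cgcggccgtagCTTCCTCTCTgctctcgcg
RPL26 (chr17:8383179-8383208, minus strand): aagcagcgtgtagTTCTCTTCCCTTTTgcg
RPL26L1 (chr5:172958714-172958743, plus strand): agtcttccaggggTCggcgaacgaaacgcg
RPS27 (chr1:153990747-153990776, plus strand): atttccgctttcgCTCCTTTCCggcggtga
RPS27L (chr15:63157463-63157492, minus strand): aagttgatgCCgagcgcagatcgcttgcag
RPL7L1 (chr6:42879601-42879630, plus strand): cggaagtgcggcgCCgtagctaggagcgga
RPL41 (chr12:56116618-56116647, plus strand): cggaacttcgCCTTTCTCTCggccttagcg
RPL22 and RPL22L1 have runs of 11 and 10 pyrimidines that cover the start base, and RPL26 and RPS27 have runs of 14 and 9 that do so. The runs of RPL26L1, RPS27L and RPL7L1 are 2 pyrimidines long and end before the start base. The RPL26L1 gene begins at 172954094 in RefSeq, upstream of the window shown, so its start base here is not the outermost one. The same holds for RPL27. Short runs do not separate relatives from ordinary members, since RPL27, RPS15 and RPS29 also have a run of 2 near their annotated starts and RPL15 and RPS27A a run of 3. A C followed by at least 4 pyrimidines stood exactly at the annotated start of 43 of the 67 members (64.2%), against 4.79% of the 14747 table genes with an entry. Within 5 bases of the annotated start it was found for 76.1% of the members, against 22.3% of those table genes. Among motifs searched on both strands from 250 bases before to 50 bases after the start, the ETS-type motif CCGGAAG was present in 34.3% of the members and 15% of the table genes, the GC box GGGCGG in 53.7% and 61.5%, the E-box CACGTG in 5.97% and 9.17%, and the TATA box TATAAA in 10.4% and 8.37%. The members lie on many chromosomes, with 12 on chromosome 19 and 9 on chromosome 3.

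Ribosomal protein mRNAs were at the top of the expression range, with 50 members among the 100 genes of the highest mean TPM over the 12 libraries. The median member had 1688 TPM, 58 members had over 1000 TPM, 20 had 100 to 1000, 4 had 1 to 100 and 2 had under 1. RPS27, a zinc-finger protein of the small subunit, was the highest with a mean of 9242 TPM, followed by RPS2 with 7409 and by RPL41, which encodes the shortest protein of the large subunit, with 6385 TPM. RPLP0, the base of the ribosomal stalk, was also near the top with 4382 TPM. The lowest places were taken by relatives of ordinary members. RPL10L, a testis gene, was near 0, with 3, 1, 1 and 1 counts summed over the chaetocin, siSUV39H1, siNC and DMSO libraries, and it was not tested. RPL3L, known from striated muscle, had a mean of 0.932 TPM, RPL22L1 had 17.4, RPL39L had 48.1, RPS27L had 50.1 and RPL7L1 had 65.8 TPM. Apart from shares and sums of TPM and the ratios of a relative to its main gene, levels below are compared within a gene.

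The members took up a smaller share of the RNA with chaetocin and with siSUV39H1 than in the matching controls. Their share of all TPM was 15.27%, 14.66% and 15.29% in the chaetocin libraries, against 16.96%, 17.33% and 17.87% in the DMSO libraries. It was 15.62%, 15.06% and 15.05% in the siSUV39H1 libraries, against 17.08%, 17.88% and 15.91% in the siNC libraries. Neither pair of groups overlapped, but siNC replicate 3 lay only just above siSUV39H1 replicate 1. Large-subunit members held 8.29% ± 0.189 of all TPM with chaetocin and 9.68% ± 0.242 with DMSO (SD, n = 3 each), and small-subunit members held 6.78% ± 0.171 and 7.70% ± 0.217. The share is relative to all other mRNA, and in RNA from bulk cells fewer cells of a type and less RNA per cell cannot be told apart.

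**Figure D1:**
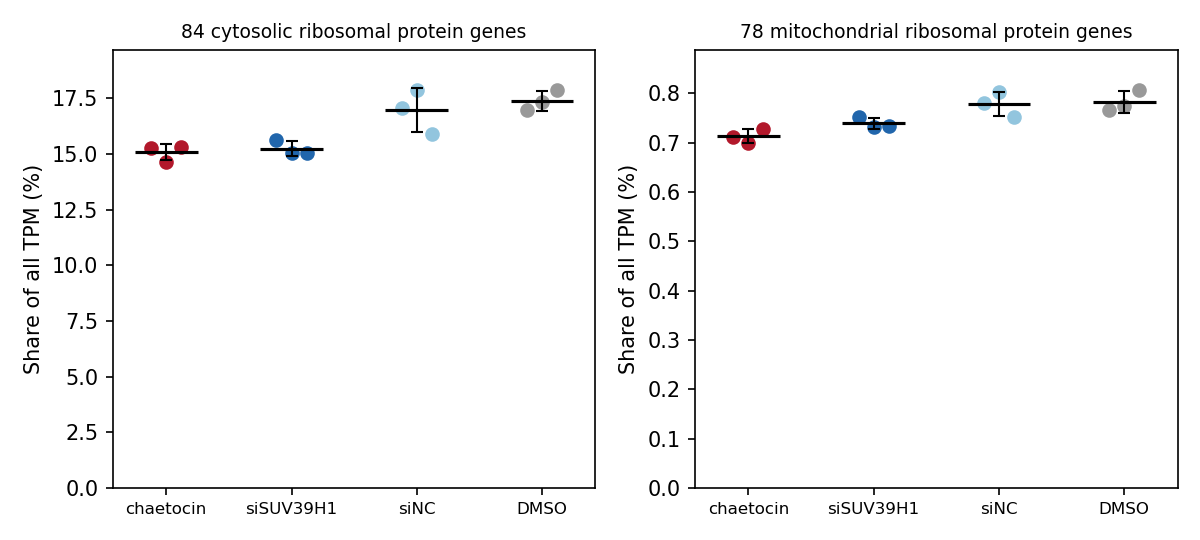
Share of all TPM (y axis, percent) held by the 84 cytosolic ribosomal protein genes (left) and by 78 mitochondrial ribosomal protein genes (right) in each library, with the group on the x axis. Points are libraries, horizontal lines are group means and bars are ±1 SD of 3 libraries. The chaetocin libraries lie at 14.66% to 15.29% on the left, below all DMSO libraries, and the siNC libraries spread over 15.91% to 17.88%.

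With chaetocin, 62 of the 83 tested members fell and 1 rose. A gene was called when its p from the edgeR quasi-likelihood fit, adjusted by the Benjamini-Hochberg method over all 15051 tested genes, was under 0.05. The shift was small and broad. The median member changed by -0.35 on the log2 scale, against a median of 0.04 for all tested genes. Chaetocin changed most of the transcriptome, and 38.4% of all tested genes were called lower and 41.1% higher, or 79.5% in either direction, so the 74.7% of members called lower stand above the share for all genes. In 71 of 83 members every chaetocin library was below every DMSO library, against 40.1% of all tested genes, and in 1 member every one was above, against 42.7%. Of the large-subunit members 40 of 51 fell, and of the small-subunit members 22 of 32 fell, with medians of -0.35 and -0.31. Leaving out any 1 of the 6 libraries gave 56 to 65 members called lower. In all of these runs 56 members were called lower, as were 35.4% of all tested genes. The 6 members that lost their call at least once were RPL10, RPL13, RPL21, RPL26, RPS20 and RPS27. With libraries scaled by their totals alone, 44 members were called lower and the median member changed by -0.20 while that of all genes was 0.19. The members' distance from all genes was -0.39 with either scaling, but scaling shifts all genes nearly alike, so this agreement was fixed beforehand. The distance was -0.32 with limma-trend on log2(TPM + 1). With DESeq2 it was -0.59, over 18705 genes without the filter on low counts.

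**Figure D2:**
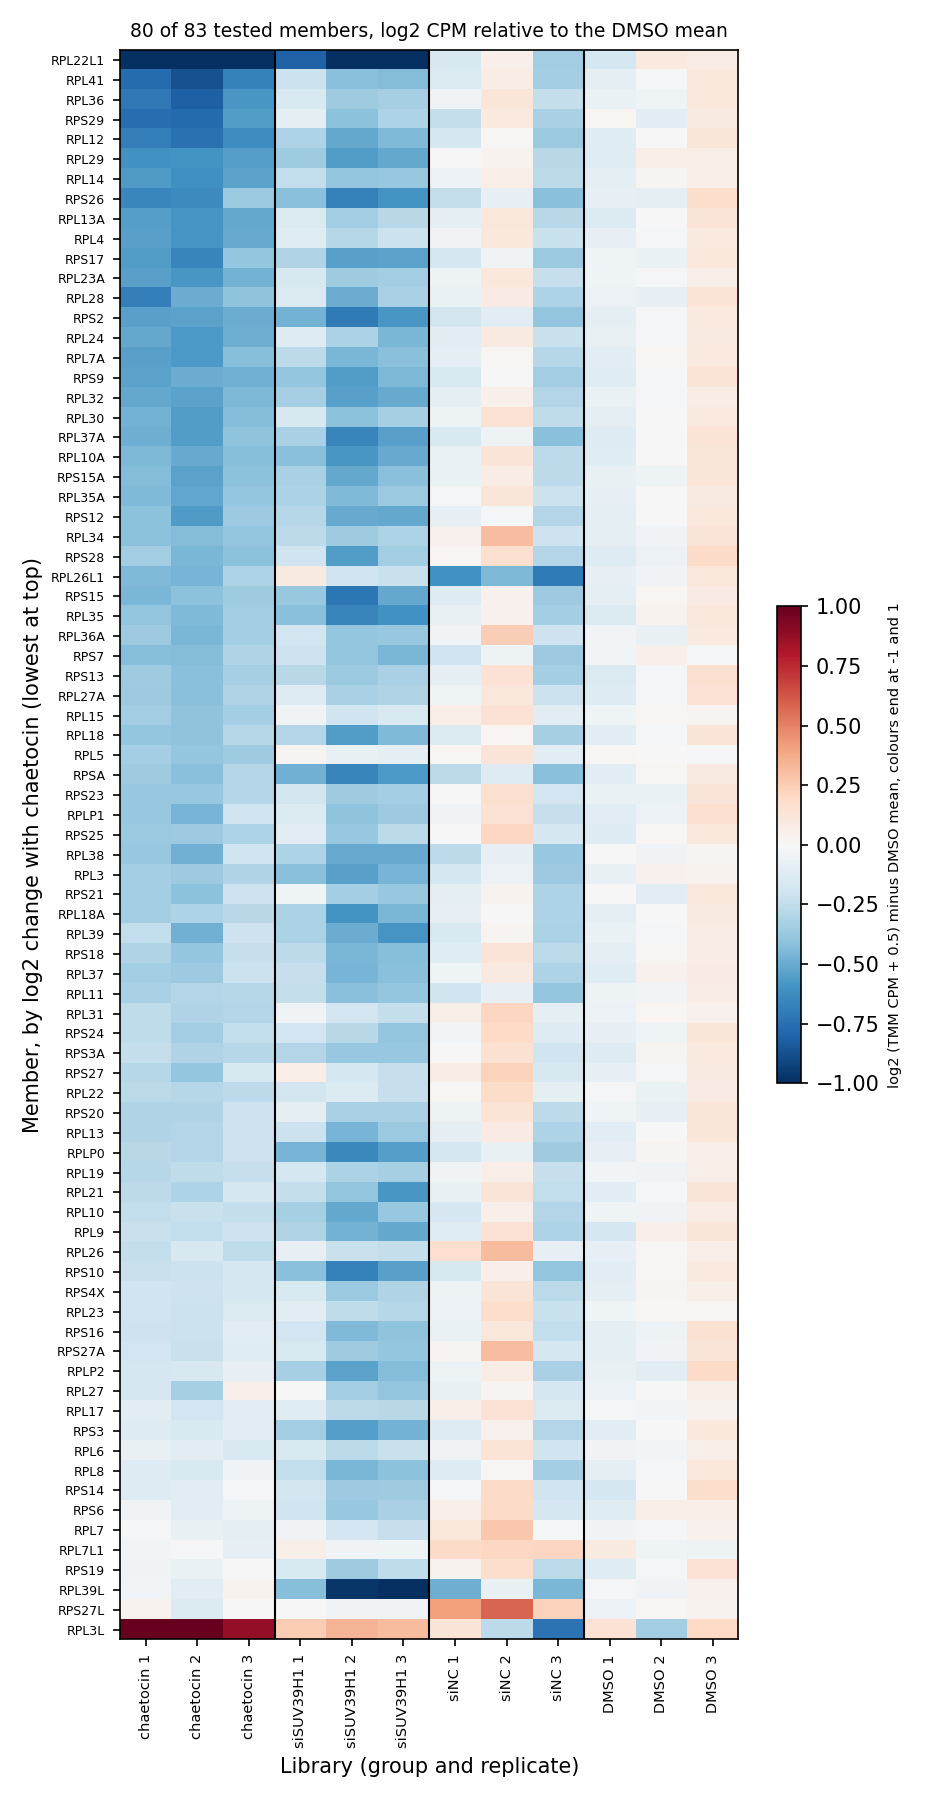
Heat map of log2(TMM-scaled CPM + 0.5) minus the mean of the 3 DMSO libraries (colour, ending at -1 and 1) for 80 of the 83 tested members (rows, ordered by their change with chaetocin) in the 12 libraries (columns). The chaetocin and siSUV39H1 columns are mostly blue, siNC replicate 2 is mostly red and siNC replicate 3 mostly blue, and RPL22L1 at the top goes past the colour scale in all 3 chaetocin libraries, as RPL3L at the bottom does in chaetocin replicates 1 and 2.

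RPL22L1, the relative of RPL22, had by far the largest fall. It stood at 6.52, 5.96 and 7.55 CPM (counts scaled to a common library size with TMM factors) with chaetocin, against 23.4, 28.4 and 27.9 CPM with DMSO. Each chaetocin library was thus far below each DMSO library, and the log2 change was -1.99 ± 0.14 (SE, n = 3 per group, adjusted p = 2.26e-09 by edgeR), a 3.98-fold lower level. RPL41 stood at 1263, 1178 and 1348 CPM with chaetocin, against 2019, 2136 and 2330 CPM with DMSO. Its groups did not overlap, and it fell by 0.78 ± 0.10 on the log2 scale (adjusted p = 4.49e-06 by edgeR). RPL36, a protein of the large subunit, had 282, 262 and 309 CPM with chaetocin, against 443, 450 and 497 with DMSO. RPS29, a small zinc-finger protein mutated in some families with Diamond-Blackfan anaemia, had 88.5, 87.5 and 102 CPM with chaetocin, against 152, 140 and 160 with DMSO. Both fell by 0.70 on the log2 scale, with standard errors of 0.09 and 0.11 and no overlap. RPL12, which sits at the base of the stalk, fell by 0.69 ± 0.09 and RPL29 by 0.59 ± 0.09. Beyond these 6 the falls were modest and even, and the 62 called members reached down only to -0.22.

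RPL3L was the one member that rose with chaetocin, at a level close to the limit of detection. Its expected counts were 39.12, 45.1 and 31.29 in the chaetocin libraries, against 14.78, 8.28 and 15.87 in the DMSO libraries, with a log2 change of 1.53 ± 0.33 (adjusted p = 0.000478 by edgeR). For every 100 TPM of RPL3 it had 0.0946, 0.113 and 0.0775 TPM with chaetocin, against 0.0312, 0.0156 and 0.0307 with DMSO. Markers fixed for other cell types were also higher with chaetocin. The 5 blood cell markers in the tables summed to 8.14 to 8.44 TPM with chaetocin and 1.12 to 1.5 TPM with DMSO, where CD3E was at 0 in all DMSO libraries. The 5 endothelial markers summed to 10.5 to 11.4 TPM with chaetocin and 1.34 to 1.66 TPM with DMSO, where CDH5 was at 0, and the 6 epithelial markers to 159 to 168 TPM and 125 to 136 TPM. The 10 neuroblastoma markers summed to 79.0 to 82.0 TPM with chaetocin and 1169 to 1473 TPM with DMSO. The part of these changes in the members' fall was not tested.

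Members with a known role beyond the ribosome did not fall evenly with chaetocin. RPL5 and RPL11, which form a complex with the small ribosomal RNA of the large subunit and bind MDM2 when ribosome assembly fails, both fell. RPL5 stood at 576, 557 and 570 CPM with chaetocin, against 735, 729 and 720 CPM with DMSO, with no overlap and little spread within either group, and changed by -0.36 ± 0.07 (adjusted p = 0.000164 by edgeR). RPL11 changed by -0.30 ± 0.08 (adjusted p = 0.00273). RPL23, another MDM2-binding protein, changed by -0.19 ± 0.09 and was not called (adjusted p = 0.0578), although its groups did not overlap. Of the stalk proteins that recruit translation factors, RPLP0 fell by 0.26 ± 0.08 and RPLP1 by 0.35 ± 0.11, while RPLP2 had no call at -0.14 ± 0.10. RPL13A, which can repress translation of inflammatory mRNAs outside the ribosome, fell by 0.55 ± 0.10. RPSA, first described as a laminin receptor precursor, fell by 0.36 ± 0.08, RPL38, needed in mice for the translation of Hox mRNAs, by 0.35 ± 0.09, RPS25, which viral internal ribosome entry depends on, by 0.35 ± 0.09, and RPL10, which is added late in large-subunit maturation, by 0.24 ± 0.08.

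Several members of the small subunit had no call with chaetocin. RPS6, the substrate of the S6 kinases, stood at 1384, 1320 and 1370 CPM with chaetocin, against 1302, 1483 and 1476 CPM with DMSO. The groups overlapped, and the log2 change of -0.06 had a 95% interval of -0.27 to 0.14. RPS19, the gene most often mutated in Diamond-Blackfan anaemia, stood at 764, 750 and 786 CPM with chaetocin, against 719, 774 and 864 CPM with DMSO, and its change of -0.04 had an interval of -0.26 to 0.19. RPS3, which lines the mRNA entry channel, RPS14, whose loss underlies the anaemia of the 5q- syndrome, and RPS27A, made as a fusion with ubiquitin, had log2 changes of -0.13 ± 0.09, -0.09 ± 0.10 and -0.18 ± 0.10 (adjusted p = 0.164, 0.404 and 0.122 by edgeR). RPS27A stood at 393, 384 and 413 CPM with chaetocin, against 418, 438 and 490.3 CPM with DMSO, so that its groups did not overlap, whereas those of RPS3 and RPS14 did. The sign of RPS6, RPS19, RPS3, RPS14 and RPLP2 was positive when libraries were scaled by their totals alone. Across the 83 tested members the log2 change had a Spearman rank correlation of 0.22 with the coding length, which ran from 75 bases for RPL41 to 1281, a weak relation across genes that are not independent replicates.

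After SUV39H1 knockdown, 53 members fell and 1 rose relative to siNC, but the number depended strongly on single libraries. The median member changed by -0.27 on the log2 scale, against 0.01 for all tested genes, and 18.6% of all tested genes were called lower and 15.3% higher, or 33.9% in either direction. By subunit, 30 of 51 large and 23 of 32 small members fell. In 30 of 83 members every siSUV39H1 library was below every siNC library, against 21.6% of all tested genes, and in 2 members every one was above, against 20.7%. The siNC libraries differed among themselves in these very genes. Relative to the DMSO mean the median member stood at -0.07, 0.09 and -0.27 in siNC replicates 1, 2 and 3. Relative to the siNC mean the median member stood at -0.15, -0.35 and -0.31 in siSUV39H1 replicates 1, 2 and 3. Without siNC replicate 2 the members called lower numbered 17 of 83, and 2316 of all 15363 genes tested were called lower. The members were then only somewhat above the share of all genes. Without siNC replicate 1 the numbers were 24 members and 2076 of 15362 genes. Without siNC replicate 3 they were 76 members and 2728 of 15367 genes. Without siSUV39H1 replicates 1, 2 and 3 in turn the members called lower numbered 72, 27 and 23. The genes numbered 2946 of 15366, 2255 of 15361 and 2144 of 15371. The members' median stayed negative in each case, between -0.36 and -0.19. A fit of these 6 libraries alone called 31 members and 2324 of 13728 genes lower. The neuroblastoma markers summed to 895 to 969 TPM with siSUV39H1 and 719 to 739 TPM with siNC, and the epithelial markers to 173 to 181 TPM and 135 to 141 TPM, and their part in the result was not tested.

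Whichever library was left out, 15 members were called lower, among them RPL10A, RPL22L1, RPL29, RPL32, RPL35, RPL35A, RPLP0, RPS2, RPS3, RPS3A, RPS10, RPS15, RPS15A and RPS27L, whereas 12.3% of all tested genes were called lower every time. RPL22L1 again had the largest fall, with 14.9, 12.8 and 11.9 CPM with siSUV39H1, against 23.6, 27.4 and 20.7 CPM with siNC. The groups did not overlap, and the log2 change was -0.86 ± 0.13 (adjusted p = 0.000113 by edgeR). RPL35 and RPL10A, both of the large subunit, each fell by 0.44, with standard errors of 0.10 and 0.09. RPLP0 fell by 0.35 ± 0.08 and RPS3, without a call under chaetocin, by 0.34 ± 0.09.

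RPS6 stood at 1234, 1088 and 1133 CPM with siSUV39H1, against 1471, 1616 and 1260 CPM with siNC, and fell by 0.33 ± 0.09 (adjusted p = 0.00975 by edgeR). That call was lost without siNC replicate 1, at -0.31, and without siNC replicate 2, at -0.25. RPSA changed by -0.30 ± 0.08, with the call lost without siNC replicate 2, at -0.23. RPL5 was close to level, at 743, 693 and 684 CPM with siSUV39H1 and 739, 797 and 672 CPM with siNC, with overlapping groups and a 95% interval of -0.21 to 0.10 for the log2 change. RPL11, RPL13A, RPL23, RPL38, RPLP1 and RPS19 were also not called, with changes between -0.26 and -0.13. Without siNC replicate 3 all of these 6 members passed the threshold.

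Members that fell with chaetocin and members that fell with knockdown overlapped, and these comparisons share no control libraries. In all, 40 members were called lower in both, which is 64.5% of those lower with chaetocin and 75.5% of those lower with siSUV39H1. Of all 83 tested members, 63.9% were called lower with siSUV39H1 and 74.7% with chaetocin, nearly the same shares. The overlap is thus about what these numbers of calls alone give, and it does not mark out particular members. Over all tested genes 9.25% were called lower in both, which is 24.1% and 49.7% of the genes called lower in each. A further 21 members were called lower with chaetocin alone, among them RPL41, RPL36, RPS29, RPL12, RPL5, RPL11 and RPL13A, and 13 with siSUV39H1 alone, among them RPS6, RPS3, RPS14, RPS27A, RPLP2, RPL7, RPL7L1, RPL39L and RPS27L. RPL6, RPL8, RPL23, RPL27, RPS4X and RPS19 were among those called in neither. The mean level was lowest with chaetocin for 40 members, with siSUV39H1 for 41 and with siNC for 2, and highest with DMSO for 66, with siNC for 16 and with chaetocin for 1.

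**Figure D3:**
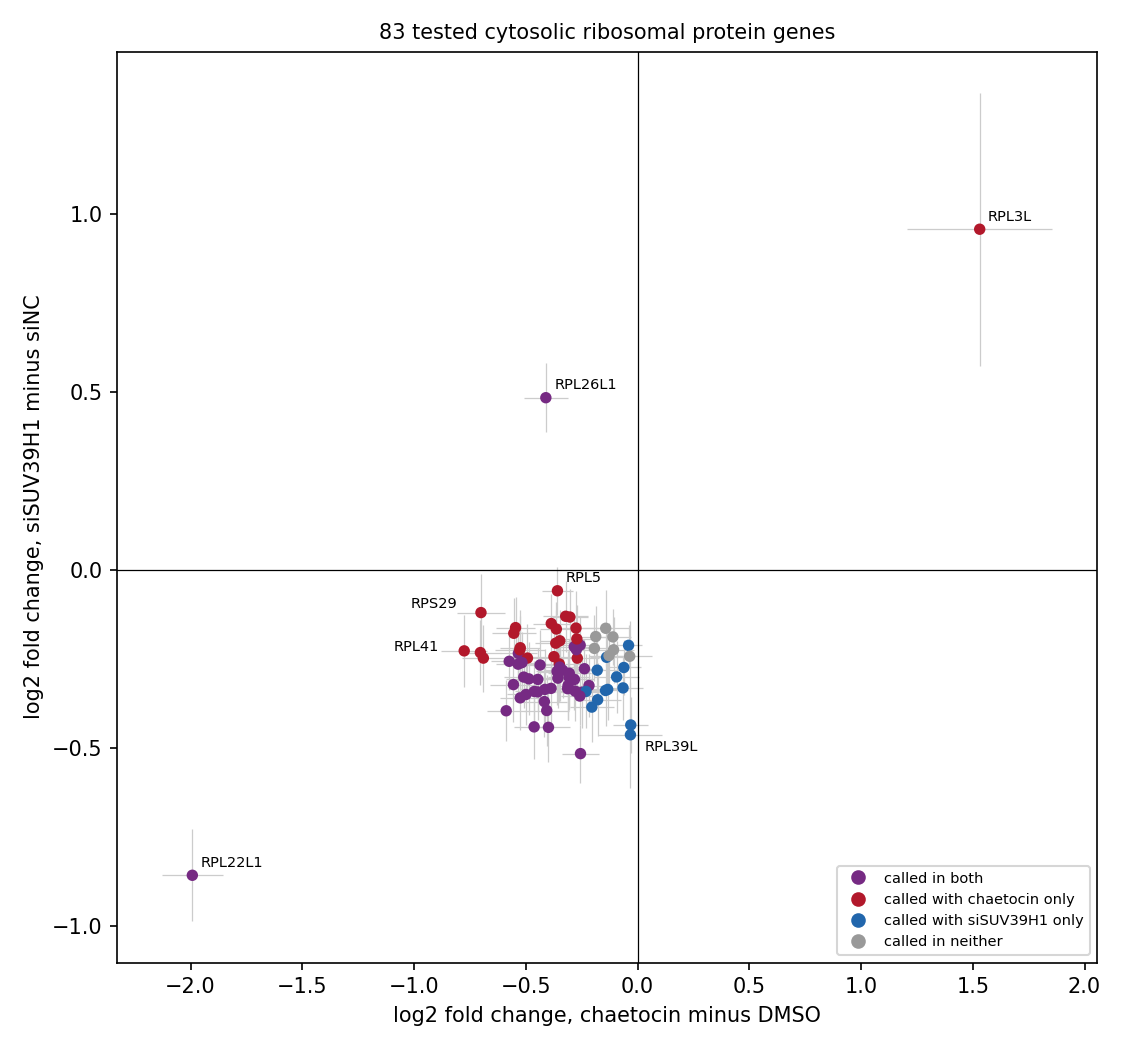
Log2 fold change of the 83 tested members with chaetocin relative to DMSO (x axis) and with siSUV39H1 relative to siNC (y axis). Bars are standard errors and colours give the calls at an adjusted p under 0.05. Most members form one cloud below 0 on both axes, and RPL22L1, RPL26L1 and RPL3L lie away from it.

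Tested directly, the chaetocin effect lay below the siSUV39H1 effect for 12 members and above it for 1, where 33.7% and 33.9% of all tested genes were called in those directions, or 67.6% in either. The 14.5% of members called below was thus under the share of all genes. The 12 were RPL22L1, RPL26L1, RPS29, RPL41, RPL36, RPL12, RPL4, RPL13A, RPL14, RPL24, RPL5 and RPL23A, and 8 of them, RPL12, RPL22L1, RPL26L1, RPL36, RPL4, RPL41, RPL5 and RPS29, were called whichever of the 12 libraries was left out. The differences on the log2 scale were -1.13 ± 0.19 for RPL22L1, -0.90 ± 0.14 for RPL26L1, -0.58 ± 0.15 for RPS29 and -0.55 ± 0.14 for RPL41 (adjusted p = 7.08e-05, 3.36e-05, 0.00336 and 0.00346 by edgeR). RPS27L was the 1 member above, by 0.41 ± 0.11 (adjusted p = 0.00442). This split depended on the scaling, and with library totals alone 9 members were called below and 13 above. Without siNC replicate 2 the members called below numbered 19, and those called above numbered 6 without siNC replicate 3, 5 without siSUV39H1 replicate 1 and 2 without DMSO replicate 1.

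Few members were called with siNC relative to DMSO, a comparison that also includes the transfection. 4 members were called lower and 2 higher, against 18.2% and 17% of all tested genes, or 35.2% in either direction, and the median member differed by -0.08. The libraries of the 2 groups did not overlap for 7 members on the lower and 2 on the higher side, against 24.4% and 22.1% of all tested genes. RPL26L1 fell by 0.59 ± 0.10 (adjusted p = 0.000245 by edgeR) and RPS27L rose by 0.41 ± 0.08 (adjusted p = 0.000775), and both calls held whichever library was left out. RPSA, RPL38 and RPL11 fell by 0.27, 0.23 and 0.22, and RPL7L1 rose by 0.21. The RPSA call was lost without siNC replicate 1 or 3 or DMSO replicate 2 or 3, at -0.28, -0.20, -0.28 and -0.23, and that of RPL7L1 without DMSO replicate 2 or 3, at 0.17 and 0.18. RPL38 and RPL11 each lost their call without any one library other than siNC replicate 2, with changes between -0.26 and -0.14. Without siNC replicate 2, 18 members were called lower, as were 2677 of all 15363 genes tested. Without DMSO replicate 1 there were 2 members, and without siNC replicate 1 or 3 or DMSO replicate 2 or 3 there was 1. Without siNC replicate 3 the median member differed by 0.01 and 3 members were called higher, against 1 without DMSO replicate 2 or 3. The neuroblastoma markers summed to 719 to 739 TPM with siNC and 1169 to 1473 TPM with DMSO, and their part in these calls was not tested.

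Several relatives of ordinary members differed between groups in their level relative to the main gene, a measure free of the library scaling. RPL22L1 had 2.06, 1.90 and 2.37 TPM for every 100 TPM of RPL22 with chaetocin, against 6.18, 7.77 and 6.91 with DMSO. It had 4.44, 3.68 and 3.64 with siSUV39H1, against 6.14, 6.31 and 5.75 with siNC. RPL22L1 was therefore scarcer relative to RPL22 in every chaetocin and every siSUV39H1 library than in any control. RPL22 itself, which binds RNA and in mice lowers Rpl22l1 mRNA, stood at 345, 341 and 346 CPM with chaetocin, against 411, 397 and 439 with DMSO. RPL22 changed by -0.27 ± 0.07 with chaetocin (adjusted p = 0.00218 by edgeR) and by -0.22 ± 0.07 with siSUV39H1 (adjusted p = 0.0223), the second call being lost without siSUV39H1 replicate 3 at -0.20, siNC replicate 1 at -0.23 and siNC replicate 2 at -0.14. RPL22L1 lies on chromosome 3 at 170864875 to 170870195 of GRCh38.p14.

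RPL26L1, whose protein is nearly identical to that of RPL26, was the member with opposite calls in the 2 comparisons. It stood at 38.3, 37.6 and 42.1 CPM with chaetocin, against 49.3, 51.0 and 56.5 CPM with DMSO, a change of -0.41 ± 0.10 (adjusted p = 0.00116 by edgeR). It stood at 55.4, 45.3 and 44.8 CPM with siSUV39H1, against 34.2, 38.1 and 31.7 CPM with siNC, a change of 0.48 ± 0.10 (adjusted p = 0.00132 by edgeR). The siNC libraries were below all DMSO libraries, and the siSUV39H1 libraries overlapped the DMSO libraries. Relative to RPL26 it had 2.53, 2.52 and 2.80 TPM per 100 with siNC, against 4.35, 4.22 and 4.46 with DMSO. RPL26 itself fell by 0.22 ± 0.09 with chaetocin and by 0.32 ± 0.09 with siSUV39H1. The first of these calls was lost without chaetocin replicate 1 or 3 or DMSO replicate 2 or 3, at -0.19 to -0.22, and the second without siNC replicate 1 or 2, at -0.30 and -0.23.

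In TMM-scaled CPM, RPS27L was highest with siNC and level in the 3 other groups. It had 155, 138 and 152 CPM with chaetocin, 152, 147 and 148 with siSUV39H1, 201, 226 and 178 with siNC and 146, 154 and 155 with DMSO. Its change was -0.03 ± 0.08 with chaetocin relative to DMSO, without a call, and -0.44 ± 0.08 with siSUV39H1 relative to siNC (adjusted p = 0.000517 by edgeR). Relative to RPS27, which fell with chaetocin, RPS27L had 0.596, 0.569 and 0.535 TPM per 100 with chaetocin, against 0.485, 0.490 and 0.459 with DMSO. These groups did not overlap. The ratio was 0.604, 0.608 and 0.627 with siNC and 0.459, 0.527 and 0.545 with siSUV39H1. RPL7L1, a relative of RPL7 with a role in ribosomal RNA processing, had 141, 143 and 136 CPM with chaetocin, 150, 140 and 140 with siSUV39H1, 164, 166 and 167 with siNC and 153, 139 and 139 with DMSO. In CPM its siNC libraries too were above all others. RPL7L1 changed by -0.21 ± 0.06 with siSUV39H1 relative to siNC (adjusted p = 0.0107 by edgeR), and the call was lost without siSUV39H1 replicate 3, at -0.19. Relative to RPL7 it had 7.67, 7.10 and 8.56 TPM per 100 with siNC, against 7.96, 7.06 and 6.91 with DMSO. With siSUV39H1 it had 7.74, 8.05 and 8.21, and this ratio overlapped between the groups in all 3 comparisons.

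RPL39L, a testis-enriched relative of RPL39, was low in the siSUV39H1 group. It had 15.6, 10.5 and 10.3 CPM with siSUV39H1, against 14.9, 19.96 and 15.2 CPM with siNC, and 20.6, 19.5 and 21.6 CPM with chaetocin, against 20.9, 20.5 and 21.7 CPM with DMSO. The siRNA groups overlapped, and the change of -0.46 ± 0.15 (adjusted p = 0.0258 by edgeR) lost its call without siSUV39H1 replicate 2, siSUV39H1 replicate 3 or siNC replicate 2, at -0.37, -0.36 and -0.31. Relative to RPL39, RPL39L had 2.73, 3.05 and 2.79 TPM per 100 with chaetocin, against 2.45, 2.30 and 2.30 with DMSO, without overlap. With siSUV39H1 it had 2.17, 1.65 and 1.73, against 1.85, 2.18 and 2.12 with siNC, and these overlapped. RPL36AL, which the naming rule leaves out, is a nearly identical relative of RPL36A and was set beside it. It had 27.0, 29.9 and 27.1 TPM per 100 of RPL36A with siSUV39H1, against 24.0, 22.3 and 24.0 with siNC, and 20.1, 21.3 and 18.8 with chaetocin, against 20.4, 21.2 and 19.8 with DMSO. The ratio of relative to main gene was compared for 6 pairs in 3 comparisons by an exact two-sided permutation test on the log2 scale. 3 against 3 libraries cannot give a p under 0.1, and 12 of the 18 comparisons reached that value, with 0.15 after Benjamini-Hochberg adjustment over the 18. The tables also hold joint entries such as RPL36A-HNRNPH2, RPS10-NUDT3 and RPL17-C18orf32 and the copy RPSAP58 with counts of their own, so values of RPL36A, RPS10, RPL17 and RPSA depend on how shared reads were divided.

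**Figure D4:**
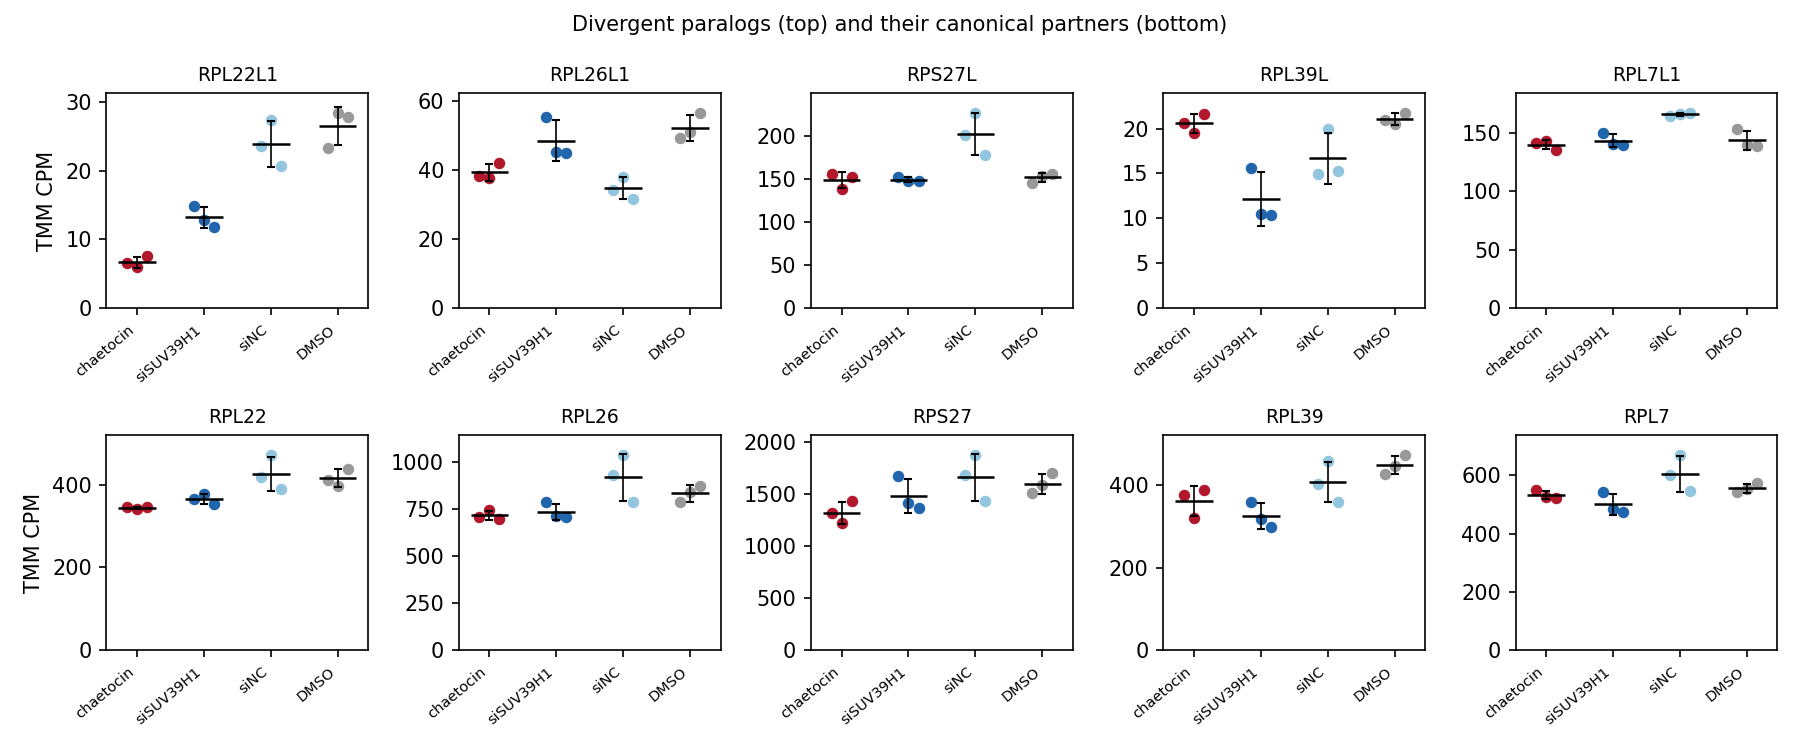
TMM-scaled CPM (y axes, each from 0) of 5 relatives of ordinary ribosomal proteins (top) and of their main genes (bottom) by group (x axes). Points are libraries, lines are means and bars are ±1 SD of 3 libraries. RPL22L1 is lowest with chaetocin and next lowest with siSUV39H1, RPL26L1 is lowest and RPS27L highest with siNC, and RPL39L is low with siSUV39H1.

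Members with and without a TOP motif at the annotated start were called lower in both comparisons. With the motif, 36 of 43 fell with chaetocin and 30 of 43 with siSUV39H1, with medians of -0.36 and -0.30. Without it, 15 of the 23 tested fell with chaetocin and 13 of 23 with siSUV39H1, with medians of -0.30 and -0.25. Both members that rose with siNC relative to DMSO, RPS27L and RPL7L1, lack the motif at that base, as do RPL26L1 and many ordinary members. The annotated start need not be the base used in these cells, and no test was made of this division.

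Other genes of the translation apparatus were set beside the members. Of 24 translation genes with known TOP mRNAs, 15 fell and 4 rose with chaetocin, against 38.4% and 41.1% of all tested genes, with a median log2 change of -0.27. RACK1, a scaffold on the small subunit, fell by 0.80 ± 0.08, EIF4A2, an RNA helicase of initiation, by 0.68 ± 0.07, and HNRNPA1, a splicing factor with a TOP mRNA, by 0.80 ± 0.07, while NAP1L1, a histone chaperone, rose by 1.11 ± 0.07. FAU, which encodes a further ribosomal protein fused to a ubiquitin-like protein, fell by 0.39 ± 0.10. With siSUV39H1 4 of the 24 fell and 5 rose, against 18.6% and 15.3% of all tested genes, with a median of -0.08. The members had 53 lower and a median of -0.27 in that comparison. EIF4B, an initiation factor, rose by 0.54 ± 0.06 and EIF3F by 0.46 ± 0.09. With siNC relative to DMSO 3 fell and 8 rose, against 18.2% and 17% of all tested genes, and EIF3F fell by 0.54 ± 0.09.

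Among the 78 mitochondrial ribosomal proteins, which form the separate ribosome of that organelle and have no TOP mRNAs as a class, 46 fell and 10 rose with chaetocin, against 38.4% and 41.1% of all tested genes, with a median of -0.25. Their share of all TPM was 0.712% ± 0.0143 with chaetocin and 0.782% ± 0.0218 with DMSO (SD, n = 3 each), and 0.739% ± 0.0109 with siSUV39H1 and 0.778% ± 0.0245 with siNC. MRPL16 fell by 1.49 ± 0.11 and MRPL40 by 1.05 ± 0.09 with chaetocin. With siSUV39H1 26 fell and 3 rose, against 18.6% and 15.3% of all tested genes, with a median of -0.16. MRPL20 fell by 0.49 ± 0.09 and MRPS12 by 0.48 ± 0.09, while MRPL49 rose by 0.43 ± 0.07. MRPL49 fell by 0.92 ± 0.07 with chaetocin. With siNC relative to DMSO 8 fell and 9 rose, against 18.2% and 17% of all tested genes.

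Of 15 chaperones and assembly factors dedicated to ribosomal proteins, 5 fell and 6 rose with chaetocin, which is near the 38.4% and 41.1% of all tested genes, with a median of -0.03. With siSUV39H1 6 fell and 1 rose, against 18.6% and 15.3% of all tested genes, and with siNC relative to DMSO 8 rose, against 17% of all tested genes, and the other 7 had no call. TSR2, the escort of RPS26, fell by 0.91 ± 0.08 with chaetocin, and EFL1, the GTPase that releases EIF6 from the new large subunit, rose by 2.18 ± 0.12. EIF6, which keeps the subunits apart, fell by 1.44 ± 0.07 with siSUV39H1 and by 0.42 ± 0.06 with chaetocin. GRWD1, the chaperone of RPL3, fell by 0.68 ± 0.07 and RRS1, which loads the complex of RPL5 and RPL11, by 0.52 ± 0.07 with siSUV39H1, and neither was called with chaetocin, at -0.06 and -0.10. With siNC relative to DMSO, RRS1 rose by 0.43 ± 0.07.

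Of 22 genes of mTORC1 and TOP mRNA control, 9 fell and 9 rose with chaetocin and 5 fell and 4 rose with siSUV39H1, both near the shares of all tested genes just given. LARP1 rose by 0.36 ± 0.08 with chaetocin and by 0.31 ± 0.08 with siSUV39H1. RPS6KB2, an S6 kinase, fell by 1.71 ± 0.10 and EIF4EBP1, a translation repressor controlled by mTORC1, by 1.02 ± 0.08 with chaetocin, while TSC1, an inhibitor of mTORC1, rose by 1.08 ± 0.10. With siSUV39H1 RHEB, the activator of mTORC1, fell by 0.51 ± 0.06 and RPTOR, a core subunit, by 0.44 ± 0.07. Of 10 genes of the ribosomal stress response, 2 fell and 7 rose with chaetocin, against 38.4% and 41.1% of all tested genes. With siSUV39H1 1 fell and 2 rose, against 18.6% and 15.3%, and with siNC relative to DMSO 1 fell and 3 rose, against 18.2% and 17%. MDM2, which RPL5 and RPL11 bind, rose by 2.26 ± 0.18 with chaetocin and by 0.51 ± 0.17 with siSUV39H1, and by 0.65 ± 0.18 with siNC relative to DMSO. All changes of list genes are log2 values ± SE with adjusted p under 0.05 by edgeR unless said otherwise.

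**Figure D5:**
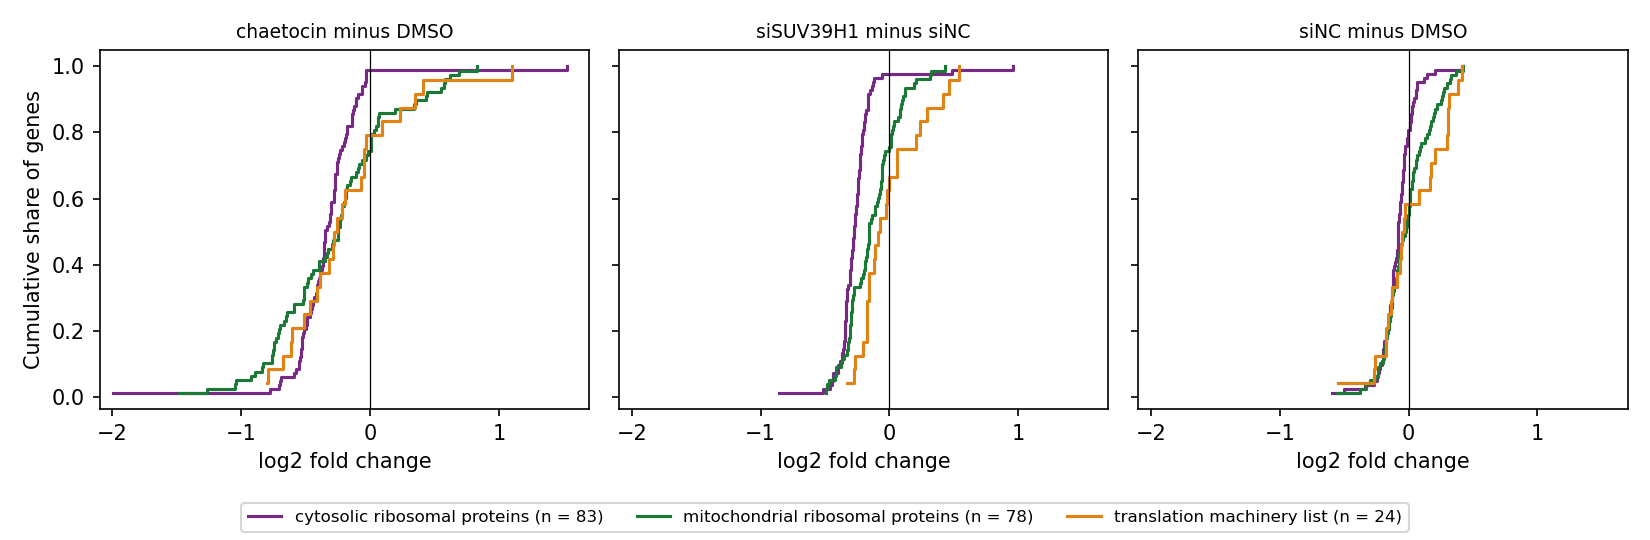
Cumulative share of genes (y axis) by log2 fold change (x axis) for the 83 tested cytosolic ribosomal protein genes, the 78 mitochondrial ribosomal protein genes and the 24 genes of the translation machinery list, in 3 comparisons. The cytosolic curve is steep and, but for 1 or 2 genes, lies left of 0 with chaetocin and with siSUV39H1, with medians of -0.35 and -0.27, and close to 0 with siNC relative to DMSO.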

How the data were processed

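The authors deposited, per gene and library, expected counts in the style of RSEM, FPKM and TPM values, per the file headers. Bowtie2, RSEM 1.3.1, DESeq2 1.4.5 and build hg38 are listed, without roles, in the submitters' processing notes. For the annotation and the strand setting, the sources used here give nothing. The deposited TPM values were used for levels between genes and for shares, and the deposited FPKM was not used. Library columns left unmapped numbered 0.

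The deposited expected counts, rounded to integers, went through filterByExpr with the groups as design and through TMM scaling. All 12 libraries entered 1 quasi-likelihood model in edgeR 4.0.16 (R 4.3.3, limma 3.58.1), which left 8 residual degrees of freedom. The biological coefficient of variation was 8.87%. 15051 genes were tested, with Benjamini-Hochberg adjustment over all of them. The fit was tested on simulated data. Figures were drawn in Python 3.11.15. With 3 libraries per group, p-values measure the spread between samples that the design text calls biological triplicates. No libraries of a group were copies, since their counts varied by 3.38 to 17.9 times the counting variance.

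The members and all lists were chosen with earlier results of these data known. Genes named are the called members with the largest changes, those of the highest and lowest TPM, the relatives and their main genes, members with textbook roles, and up to 4 list genes of the smallest p per comparison; some list genes named as partners of a member are outside that rule and were chosen after their values were seen. A few members and list genes are not reported by name here.

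Alternatives were RLE, upper-quartile, total-only and member-free TMM scaling, other filters, DESeq2 1.42.0, limma-trend on log2(TPM + 1) and log2(TPM + 0.1), fits of 6 libraries at a time, a block for the replicate number, and each library left out.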

Additional observations from a re-analysis of the deposited data

Results flagged for a closer look

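The effects of chaetocin and of SUV39H1 knockdown differed by the direct test of the difference (edgeR, adjusted p under 0.05 over all tested genes) for 12 members below and 1 member above. On the log2 scale the chaetocin effect minus the siSUV39H1 effect was -1.13 for RPL22L1, which fell in both comparisons. It was -0.90 for RPL26L1, which fell with chaetocin and rose with siSUV39H1 relative to siNC. It was -0.58 for RPS29 and -0.55 for RPL41, which were called lower with chaetocin and not called with siSUV39H1. It was 0.41 for RPS27L, which was not called with chaetocin and fell with siSUV39H1 relative to siNC.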

How the results depend on the processing

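With 3 libraries per group and standard errors near 0.09, changes under about 0.2 on the log2 scale are hard to detect in single members. The members called lower kept within 1.5 times their number under all scalings, filters, tests and libraries left out for chaetocin, with 56 to 65 for libraries left out. Their median changed by -0.27 with upper-quartile factors, -0.20 with library totals only, and -0.20 with limma-trend on TPM at either offset, with -0.38 to -0.29 for libraries left out. With siSUV39H1 the members called lower numbered 31 with only its 6 libraries and 17 to 76 with a library left out, and those called higher were 2 with limma-trend at either offset and 1 to 2 with a library left out. The median was -0.16 with limma-trend at both offsets and between -0.36 and -0.19 with a library left out. For siNC relative to DMSO the members called lower numbered 2 with RLE factors, with TMM from other genes and without a filter, 7 with library totals only and with DESeq2, 10 with limma-trend at either offset, and 1 to 18 with a library left out. Those called higher were 4 with limma-trend on log2(TPM + 1), 5 on log2(TPM + 0.1), and 1 to 3 with a library left out, and the median lay between -0.17 and 0.0114, the highest without siNC replicate 3. For the difference of effects 20 members were called below with limma-trend at either offset and 8 to 19 with a library left out. Those above numbered 6 with upper-quartile factors, 13 with library totals only, 3 with TMM from other genes, 12 and 13 with limma-trend, and 1 to 6 with a library left out. Its median was 0.0037 with upper-quartile factors, 0.053 with library totals only, and between -0.17 and 0.0082 with a library left out, the highest without siNC replicate 3. As shares of counts the members held 6.498% with chaetocin, 6.13% with siSUV39H1, 7.17% with siNC and 7.47% with DMSO. The causes were not tested.

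Some members without a call for chaetocin relative to DMSO took a positive sign under other settings. With upper-quartile factors the change was 0.047 for RPL39L, 0.048 for RPS27L, 0.039 for RPL7L1, 0.017 for RPL7, 0.013 for RPS6 and 0.043 for RPS19. With library totals only it was 0.12 for RPL39L, 0.12 for RPS27L, 0.11 for RPL7L1, 0.089 for RPL7, 0.086 for RPS6, 0.0067 for RPLP2, 0.017 for RPS3, 0.057 for RPS14 and 0.12 for RPS19. With limma-trend on log2(TPM + 1) and log2(TPM + 0.1) it was 0.114 and 0.116 for RPL39L, 0.116 and 0.118 for RPS27L, 0.111 and 0.113 for RPL7L1, 0.0902 and 0.0903 for RPL7, 0.087 at both for RPS6, 0.013 at both for RPLP2, 0.027 at both for RPS3, 0.063 at both for RPS14 and 0.088 at both for RPS19. With a library left out it ran from -0.068 to 0.016 for RPS27L, positive without chaetocin replicate 2, and from -0.11 to 0.033 for RPS19, positive without DMSO replicate 3. For siSUV39H1 relative to siNC, RPL5 changed by 0.058 and RPL36AL by 0.045 with limma-trend at both offsets, and with a library left out by -0.12 to 0.0033 and by -0.15 to 0.020, both positive without siNC replicate 2. No named member with a call changed its direction under any alternative run.

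No pairing of the samples by replicate number was seen. Same-numbered libraries correlated at -0.18 to 0.12 in their deviations from the group means, and not every library correlated best with its own number. With 3 libraries per group such correlations cannot exclude a pairing. With the replicate number as a block, 61 members were called lower with chaetocin, 40 with siSUV39H1 and 2 with siNC relative to DMSO, and 10 lay below in the difference of effects.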
